A study of Mus musculus with 21 samples.

Results

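The 4 transcription factor genes *T*, *Noto*, *Mnx1* and *Lmx1a* were followed by name through 9 RNA-seq libraries of mouse notochord and mesoderm cells, and all 4 were found among the 23983 genes of the expression table. Peaks of T and Foxa2 binding were taken from 2 ChIP-seq libraries and described around *Noto*, *Mnx1* and *Lmx1a*. Every condition has 1 library, so differences describe these libraries, no SD, test or p-value can be given, and a change is called where FPKM values differ by at least 3-fold after adding 1 to each.

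The 6 embryonic libraries came from embryos that were made by tetraploid complementation according to the labels, whereas the study's text names diploid morula aggregation. The embryos were made from F1G4 (C57BL/6N x SV129) embryonic stem cells with 3 reporters on bacterial artificial chromosomes (BACs). These were T::H2B-Venus, Noto::H2B-mCherry and Foxa2::H2B-mTurquoise. Tissue of several embryos was pooled and cells were sorted. Notochord progenitors (NotoPs) were the Noto+/T+/Foxa2+ cells of caudal ends, trunk notochord cells were the cells with the same 3 reporters in trunk tissue, and mesodermal progenitors (MPs) were the T+/Noto-/Foxa2- cells of caudal ends, each taken at both E8.5 and E9.5. In the study's list of samples, MPs were gated for high T reporter, and NotoPs at E9.5 and trunk notochord cells for high Foxa2 reporter, whereas NotoPs at E8.5 were gated as positive. The trunk pools span wider ranges of somite stages than the caudal ones and hold fewer cells than the NotoP pools, and the part of the gate, stage range and cell number in the differences was not tested. The 3 cultured libraries came from another derivative of the same stem cells, which carries TRE::Foxa2-IRES-EGFP at the Rosa26 locus, the T::H2B-mCherry-T2A-irTA BAC and the Noto::H2B-mTurquoise BAC, so that doxycycline switches on Foxa2 in cells in which the *T* regulatory sequences are active. All cultures received bFGF and CHIR99021, a compound that activates WNT signalling. T+/Noto- cells were sorted as neuromesodermal progenitors (NMPdiff) and, a day later, as mesodermal progenitors (MPdiff), and Noto+/T+ cells of cultures with doxycycline as notochord progenitor-like cells (NotoPdiff). ChIP-seq was done on unsorted NotoPdiff cultures.

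The notochord is the rod of axial mesoderm that patterns the neural tube, gut and somites of the embryo, mainly by secreting Shh. T (brachyury), the founding T-box factor, is active in all nascent mesoderm and remains on in the notochord. Noto is a homeobox factor largely restricted to the node and notochord. Mnx1 is a homeobox factor best known from motor neurons and pancreas that is also found in the notochord, and Lmx1a is a LIM homeobox factor known from the roof plate and midbrain dopaminergic neurons.

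Because *T*, *Noto* and *Foxa2* reporters set the sort, the presence of *Noto* and *T* in sorted positive cells, and the lack of *Noto* in negative ones, is the gate and not a finding. *Mnx1* and *Lmx1a* were not part of it. The FPKM values also cannot tell transcripts of the endogenous *T*, *Noto* and *Foxa2* genes from any that arise on the BACs, nor *Foxa2* of the doxycycline transgene from the endogenous gene, and the part of each was not tested. In pooled libraries like these, fewer cells that express a gene and less RNA of it per cell cannot be told apart.

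Embryonic and cultured libraries were sequenced on different instruments, so ratios were formed only among embryonic or among cultured libraries. Between 10719 and 13945 genes were listed at 0 in an embryonic library, most of them in E8.5 MPs, the library of the fewest sorted cells, and between 7573 and 8246 in a cultured one. A value of 0 in an embryonic library and a value of about 0.1 FPKM in a cultured one therefore do not have the same meaning.

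*T* was the most abundant of the 4 genes in each of the 9 libraries. FPKM values are scaled by transcript length, so that levels of different genes can be set side by side. *T* had 909 FPKM in E8.5 NotoPs and 744 in E9.5 NotoPs. In trunk notochord it had 398 FPKM in the earlier and 424 in the later library. In MPs it had 74.8 and 160 FPKM. At both stages the NotoP library was above the trunk notochord library, and that was above the MP library. Without replicates, neither this order nor the order of the 2 stages of a tissue can be judged. Among all genes, *T* held rank 56 from the top in E8.5 NotoPs and rank 1023 in E8.5 MPs. In culture *T* had 406 FPKM in NMPdiff, 375 in NotoPdiff and 25.8 in MPdiff cells, so the first 2 were alike and MPdiff stood far below both.

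*Noto* had 152 FPKM in E8.5 NotoPs and 164 in E9.5 NotoPs, against 27.5 and 20.8 in trunk notochord, and it was listed at 0 in MPs of both stages. The NotoP pair lay well above the trunk pair. In culture *Noto* had 0.515 FPKM in NMPdiff, 22.5 in NotoPdiff and 0 in MPdiff cells.

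*Mnx1* was the least abundant of the 4 in every embryonic notochord library. It had 24.6 and 23.0 FPKM in NotoPs, 9.06 and 8.16 in trunk notochord, and 0 and 1.57 in MPs, E8.5 first. In culture it had 0.123 FPKM in NMPdiff, 10.2 in NotoPdiff and 0.0896 in MPdiff cells. It followed the same order of tissues as *Noto*, with the 2 stages of each within 1.11-fold of each other in NotoPs and in trunk notochord.

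*Lmx1a* had a different order. Its highest level was 103 FPKM in E9.5 trunk notochord, followed by 45.2 and 42.8 FPKM in E8.5 and E9.5 NotoPs and 28.3 FPKM in E8.5 trunk notochord. It was listed at 0 in MPs of both stages. In culture it had 0.0859 FPKM in NMPdiff, 9.31 in NotoPdiff and 0.0130 in MPdiff cells. E9.5 trunk notochord stood apart from the other 3 notochord libraries, where the highest and lowest differed by 1.60-fold.

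**Figure D1:**
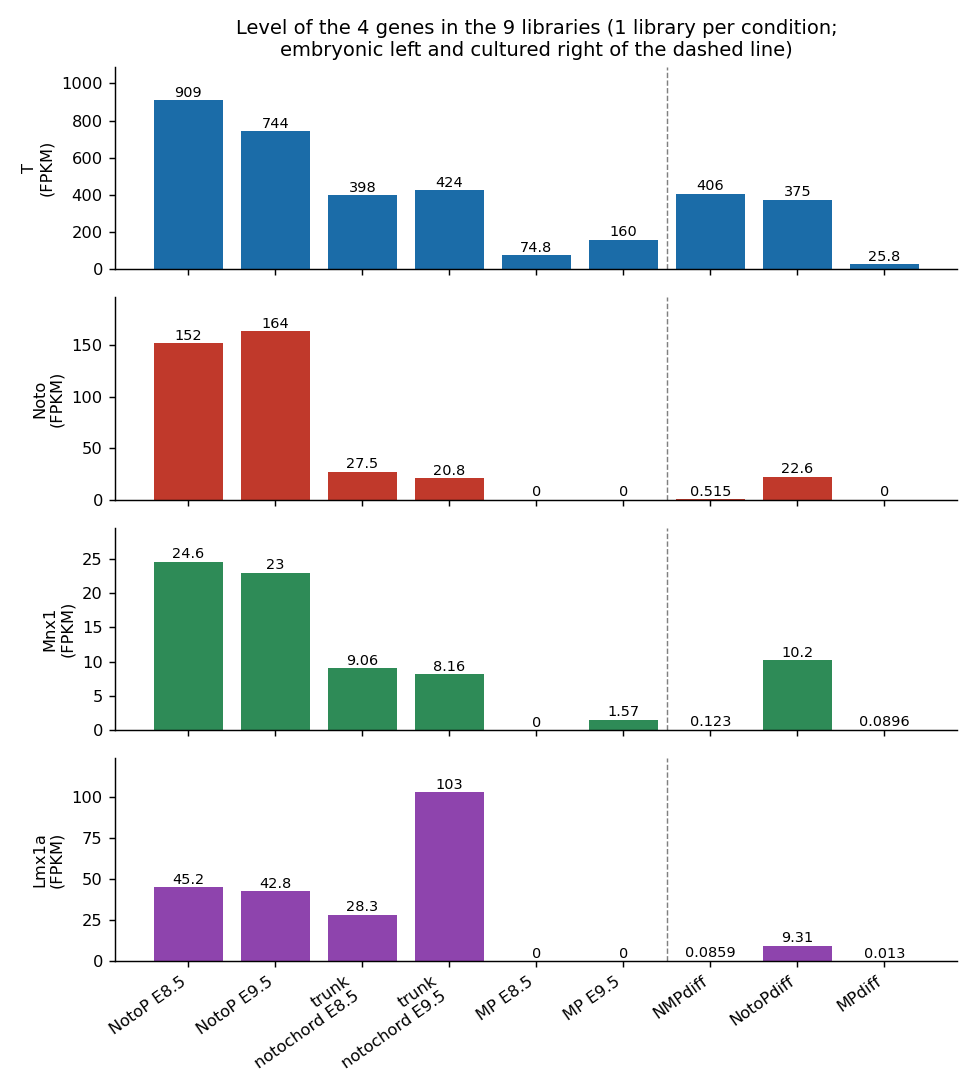
Level of *T*, *Noto*, *Mnx1* and *Lmx1a* (FPKM, bars from 0, each gene on its own axis) in the 6 embryonic and 3 cultured libraries, 1 library per bar. *T*, *Noto* and *Mnx1* were highest in the NotoP libraries, whereas *Lmx1a* was highest in E9.5 trunk notochord at 103 FPKM.

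The proportions among the 4 genes shifted along the axis. *Noto* was 3.36 times as abundant as *Lmx1a* in E8.5 NotoPs and 3.83 times in E9.5 NotoPs. In E8.5 trunk notochord they were nearly equal, with a ratio of 0.969, and in E9.5 trunk notochord *Lmx1a* was 4.97 times as abundant as *Noto*. *T* exceeded *Noto* 5.98-fold and 4.54-fold in NotoPs and 14.5-fold and 20.4-fold in trunk notochord. The ratio of *T* to *Mnx1* changed less, from 32.4 in E9.5 NotoPs to 51.9 in E9.5 trunk notochord. In NotoPdiff cells *T* exceeded *Noto* 16.6-fold and *Noto* exceeded *Lmx1a* 2.42-fold, so the first ratio lay between those of the 2 trunk notochord libraries and the second between those of E8.5 trunk notochord and NotoPs.

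The first comparison asked how the 4 genes differ between progenitors at the caudal end and the notochord of the trunk. *Noto* fell past 3-fold at both stages. It was 5.53-fold lower in trunk notochord than in NotoPs at E8.5 and 7.90-fold lower at E9.5, with log2 ratios of -2.43 and -2.92. *Mnx1* was 2.72-fold and 2.82-fold lower and *T* 2.29-fold and 1.75-fold lower, all short of 3-fold, with log2 ratios of -1.35 and -1.39 for *Mnx1* and -1.19 and -0.81 for *T*. *Lmx1a* was 1.60-fold lower in trunk notochord at E8.5 and 2.41-fold higher at E9.5, with log2 ratios of -0.66 and 1.25. So the libraries had 1 of 4 genes past 3-fold lower and 0 of 4 past 3-fold higher at each stage.

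Large differences were common between these libraries. Of the 12490 genes with at least 1 FPKM in either library at E8.5, 8.00% were at least 3-fold lower and 8.79% at least 3-fold higher in trunk notochord, and of 12349 genes at E9.5, 10.0% were lower and 8.41% higher. The scatter depended on level, and a comparison with genes of like level, whose mean over both libraries lay within 2-fold of that of the member, takes this into account as a description. Of 1219 genes of like level to *Noto* at E8.5, 0.820% had a lower ratio than *Noto*, and at E9.5 0.521% of 1152 did. Of the 139 and 149 genes of like level to *T*, 2.16% had a lower ratio than *T* at E8.5 and 22.1% at E9.5. For *Mnx1* these shares were 8.00% and 9.09%. *Lmx1a* lay at the other end at E9.5, where 4.88% of 1537 genes of like level had a higher ratio.

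Markers of other cells moved in the same comparison. Among 8 genes of paraxial mesoderm and neuromesodermal progenitors, 6 of the 7 with at least 1 FPKM were at least 3-fold lower in trunk notochord in the E8.5 libraries, and 7 of 8 in the E9.5 libraries, with a median log2 ratio of -4.17 and -5.03 against 0.05 and 0.01 over all genes. Their summed level was 320 and 316 FPKM in NotoPs, 17.3 and 3.47 in trunk notochord, and 215 and 468 in MPs. In NotoPs, *Cdx2*, a caudal homeobox gene, had 126 and 107 FPKM, *Fgf8*, a signal of the tail bud, 52.6 and 54.4, and *Msgn1*, a regulator of presomitic mesoderm, 46.6 at E9.5. *Cdx2* had 9.23 and 2.22 FPKM in trunk notochord. Whether their presence in the NotoP libraries has a part in the differences of the 4 members was not tested.

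Of 8 floor plate genes, 6 had at least 1 FPKM at each stage. In trunk notochord 2 of these were at least 3-fold higher in the E8.5 libraries and 4 in the E9.5 libraries, and 0 were lower. Over all genes, 8.79% and 8.41% were higher and 8.00% and 10.0% lower. Their summed level was 216 and 152 FPKM in NotoPs and 287 and 252 in trunk notochord. *Slit1*, an axon guidance gene, had 20.6 and 45.8 FPKM in trunk notochord and 0.180 and 1.60 in NotoPs. *Sulf1*, which the notochord also expresses, had 141 to 201 FPKM in all 4 libraries. Of 7 gut endoderm genes, all 7 had at least 1 FPKM in the E8.5 pair, of which 2 were higher and 1 lower. In the E9.5 pair 5 did, of which 1 was higher and 0 lower. *Ttr* was higher at both stages, at 36.0 and 23.4 FPKM in trunk notochord and 0 in NotoPs. At E8.5 *Hnf4a* was also higher, at 2.02 against 0 FPKM, and *Sox17* lower, at 0 against 3.58. The 7 genes summed to 99.9 and 36.8 FPKM in NotoPs and 136 and 69.5 in trunk notochord. The part of floor plate or gut cells in the *Lmx1a* values was not tested.

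Of 8 somite genes, 6 had at least 1 FPKM in each pair, of which 2 and 1 were higher and 0 lower. Over all genes, 8.79% and 8.41% were higher and 8.00% and 10.0% lower. The higher somite genes were *Tcf15* and *Pax3* at E8.5 and *Pax1* at E9.5, the last at 13.5 FPKM against 0 in NotoPs. The 8 genes summed to 64.6 and 52.2 FPKM in NotoPs and 94.4 and 49.6 in trunk notochord. Of 8 neural tube genes, 6 had at least 1 FPKM in the E8.5 pair and only 2 in the E9.5 pair. Of these, 2 were higher in the E8.5 pair and 0 in the E9.5 pair, and 0 were lower. The 8 genes summed to 39.1 and 31.3 FPKM in NotoPs and 90.7 and 68.7 in trunk notochord. The summed level of 8 blood genes was at most 12.7 FPKM in any library.

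*Mnx1* and *Lmx1a* are also markers of neurons and dorsal neural tube, so the genes that define those cells were examined. All 8 motor neuron genes were listed at 0 in NotoPs and trunk notochord of E9.5. At E8.5 their summed level was 1.71 FPKM in NotoPs, where *Isl2* had 1.53, and 0.871 in trunk notochord, where *Isl1* alone was above 0. In NotoPdiff cells the sum was 0.803 FPKM, below the 10.2 FPKM of *Mnx1*. The 8 roof plate genes summed to 10.9 and 3.55 FPKM in NotoPs, 9.90 and 6.84 in trunk notochord and 4.85 in NotoPdiff cells. In trunk notochord that sum was mostly *Pax3*, at 9.90 FPKM, at E8.5, and at E9.5 it was *Msx2*, at 3.30 FPKM, with *Zic1* at 2.13 and *Pax3* at 1.41. *Lmx1b*, the closest relative of *Lmx1a*, had 2.32 FPKM in E8.5 NotoPs and 0 in both trunk notochord libraries.

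The second comparison followed each tissue from E8.5 to E9.5. In NotoPs all 4 genes kept within 1.22-fold, with log2 ratios of -0.29 for *T*, 0.11 for *Noto*, -0.09 for *Mnx1* and -0.08 for *Lmx1a*. Of 12036 genes, 4.58% were at least 3-fold higher and 3.96% at least 3-fold lower at E9.5, and 0 of the 4 were. For *Lmx1a*, 88.1% of 2583 genes of like level moved at least as much in either direction.

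In trunk notochord *Lmx1a* rose 3.64-fold, from 28.3 to 103 FPKM, with a log2 ratio of 1.83. The other 3 genes stayed within 1.32-fold, with log2 ratios of 0.09 for *T*, -0.39 for *Noto* and -0.14 for *Mnx1*. Thus 1 of 4 genes was past 3-fold higher and 0 of 4 lower, where 8.21% of 12507 genes were higher and 11.1% lower. Of 1771 genes of like level to *Lmx1a*, 1.36% had a higher ratio. *Foxa2* was 2.00-fold lower at the same time, at 71.2 and 35.6 FPKM, short of 3-fold. Of 2172 genes of like level to *Foxa2*, 17.7% moved at least as much in either direction. Its relative *Foxa1* had 44.2 and then 88.0 FPKM. Among 16 other regulators and products of the notochord, both included, 15 had at least 1 FPKM. Of these, 0 were at least 3-fold higher and 1 lower. Over the same libraries, 6 of the 8 floor plate genes had at least 1 FPKM. Of these, 1 was at least 3-fold higher, *Nkx2-2* at 1.62 and then 7.02 FPKM. Another 1 was at least 3-fold lower, *Nkx6-1* at 14.7 and then 1.32 FPKM. *Slit1* had 20.6 and then 45.8 FPKM, *Spon1*, which encodes a secreted floor plate protein, 10.3 and 32.8, and *Ntn1*, which encodes netrin, 39.1 and 23.6. Of the 8 roof plate genes, 3 had at least 1 FPKM, of which *Msx2* and *Zic1* were at least 3-fold higher at E9.5 and *Pax3* lower, with a median log2 ratio of 1.65 against -0.03 over all genes. The part of either cell type in the value of *Lmx1a* was not tested.

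In MPs *T* was 2.14-fold higher at E9.5 than at E8.5, short of 3-fold. *Mnx1* was listed at 0 and then at 1.57 FPKM, and no fold can be given. *Noto* and *Lmx1a* were listed at 0 both times.

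The third comparison set NotoPdiff cells, from cultures with doxycycline, against NMPdiff cells, which were sorted a day earlier without it. *Noto*, *Mnx1* and *Lmx1a* were all higher in NotoPdiff cells, while *T* did not differ past 3-fold. *Noto* had 0.515 FPKM in NMPdiff and 22.5 in NotoPdiff cells, *Mnx1* 0.123 and 10.2 and *Lmx1a* 0.0859 and 9.31, with log2 ratios of 3.96, 3.32 and 3.25 after adding 1 FPKM. *T* had 406 and 375 FPKM, a log2 ratio of -0.11. With a pseudocount of 5 FPKM in place of 1, *Mnx1* (1.57) and *Lmx1a* (1.49) came just under 3-fold, which is 1.585 on the log2 scale. Hence 3 of 4 genes were past 3-fold higher and 0 of 4 lower, where 2.52% of 12464 genes were higher and 1.53% lower. Of genes of like level, 0.185% had a higher ratio than *Noto*, 0.169% than *Mnx1* and 0.200% than *Lmx1a*. *Noto* is part of this gate, and *Mnx1* and *Lmx1a* are not.

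*Foxa2* itself had 12.5 FPKM in NMPdiff, 95.5 in NotoPdiff and 1.22 in MPdiff cells, levels that can include transcripts of the transgene. Among 16 other regulators and products of the notochord, *Foxa2* included, 13 of the 15 with at least 1 FPKM were at least 3-fold higher in NotoPdiff than in NMPdiff cells and 0 lower, with a median log2 ratio of 2.97 against 0.00 over all genes. *Krt18* and *Krt8*, which encode keratins, reached 212 and 181 FPKM and *Shh*, the main notochord signal, 30.2. *Krt8* had 66.1 FPKM in NMPdiff cells and did not pass 3-fold.

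NotoPdiff and MPdiff cells were sorted a day after NMPdiff cells and differ in doxycycline and in the gate. All 4 genes were higher in NotoPdiff, and past 3-fold. *T* was 14.5-fold higher (375 against 25.8 FPKM, log2 ratio 3.81). *Mnx1* had a log2 ratio of 3.36 and *Lmx1a* of 3.35, against levels of 0.0896 and 0.0130 FPKM, while *Noto* was listed at 0 in MPdiff cells. With a pseudocount of 5 FPKM *Mnx1* (1.58) and *Lmx1a* (1.51) again came just under 3-fold. Of 12313 genes, 3.02% were at least 3-fold higher and 0.861% at least 3-fold lower. *T* was 15.7-fold lower in MPdiff than in NMPdiff cells, at 25.8 against 406 FPKM with a log2 ratio of -3.92, and was 1 of 4 genes past 3-fold lower, with 0 of 4 higher. There 2.92% of 12116 genes were lower and 1.78% higher. The other 3 genes were below 1 FPKM in both. NMPdiff and MPdiff cells share the gate and the lack of doxycycline. They differ in the day of sorting and, by the study's text, in a further day of CHIR99021 for MPdiff cells, and these cannot be told apart. Between NotoPdiff and MPdiff cells doxycycline and the gate cannot be told apart. Between NotoPdiff and NMPdiff cells the day and the length of CHIR99021 treatment differ as well.

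Over all genes, 2.52% were at least 3-fold higher in NotoPdiff than in NMPdiff cells and 1.53% lower. Of 7 gut endoderm genes, 5 had at least 1 FPKM in NotoPdiff or NMPdiff cells, of which 2 were higher in NotoPdiff and 0 lower. The 2 were *Cldn6* and *Sox17*, an endoderm regulator, at 7.46 against 0.599 FPKM. The 7 genes summed to 256 FPKM in NotoPdiff and 213 in NMPdiff cells, mostly from *Cldn6*, *Cdh1* and *Epcam*. *Cldn6*, a tight junction gene, had 126 FPKM and *Cdh1*, the epithelial cadherin, 88.5 in NotoPdiff. The progenitor markers *Dll1*, *Cdx2* and *Tbx6* had 41.5, 39.9 and 21.3 FPKM in NotoPdiff cells. Of the 8 genes of paraxial mesoderm and neuromesodermal progenitors, 1 was at least 3-fold higher in NotoPdiff than in NMPdiff cells, *Cdx2*, and 2 lower, *Msgn1* at 11.2 against 52.7 FPKM and *Cyp26a1* at 4.87 against 23.3, with a median log2 ratio of -0.90. Of 8 somite genes, 3 had at least 1 FPKM, of which 2 were higher and 0 lower with a median log2 ratio of 2.73. These were *Aldh1a2*, which encodes an enzyme of retinoic acid synthesis, at 70.3 against 0.301 FPKM, and *Meox1*, a somite homeobox gene, at 5.64 against 0. *Aldh1a2* had 364 FPKM in MPdiff cells. The part of these cells in the values of the 4 members was not tested.

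**Figure D2:**
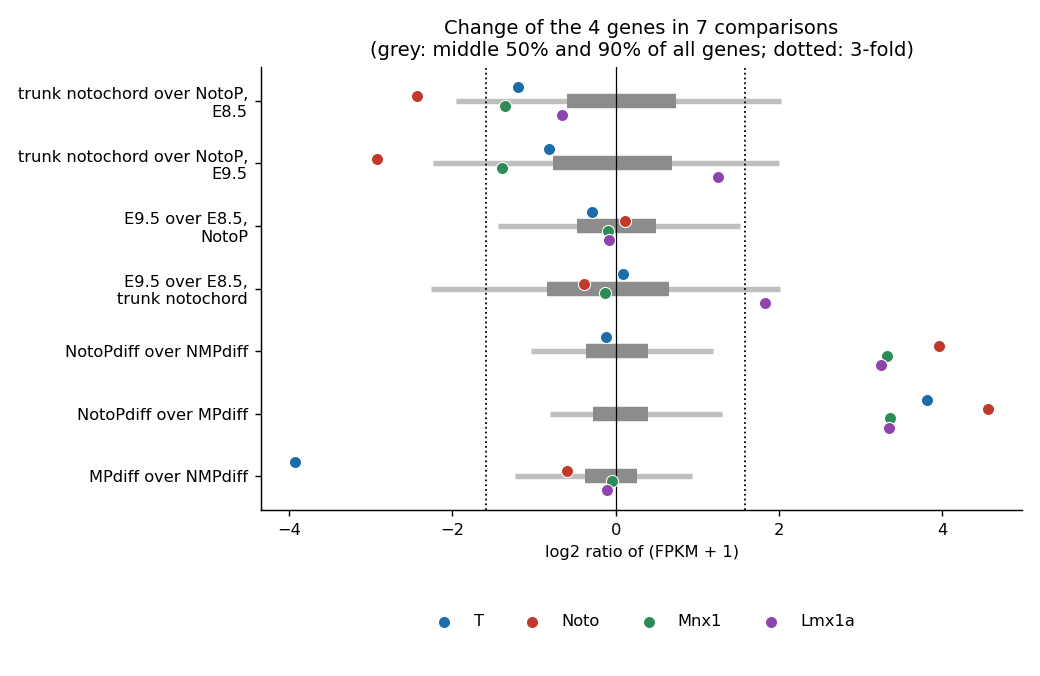
Log2 ratio of FPKM + 1 for *T*, *Noto*, *Mnx1* and *Lmx1a* (points) in 7 comparisons, with the middle 50% (dark) and 90% (light) of all genes with at least 1 FPKM and dotted lines at 3-fold. *Noto* lies past 3-fold lower in both trunk comparisons, *Lmx1a* alone past 3-fold higher from E8.5 to E9.5 in trunk notochord, and 3 of the 4 genes past 3-fold higher in NotoPdiff over NMPdiff.

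Within lists of related genes *T*, *Noto* and *Lmx1a* were the highest members in most notochord libraries, and *Mnx1* was not. Of 17 T-box genes, *T* was the highest in 8 of 9 libraries, followed in NotoPs by *Tbx6*, the regulator of presomitic mesoderm, at 44.0 and 27.8 FPKM. In MPdiff cells *Mga*, a T-box repressor expressed widely, had 34.0 and *Tbx6* 33.2 FPKM, above the 25.8 of *T*. In NMPdiff cells *Eomes*, a T-box factor of early mesoderm and endoderm, had 54.1 FPKM. In NotoPdiff over NMPdiff cells 0 of 4 T-box genes with at least 1 FPKM were past 3-fold higher and 1, *Eomes*, lower. Of all genes, 2.52% were higher and 1.53% lower there.

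Of 12 LIM homeobox genes, *Lmx1a* was the highest in all 4 embryonic notochord libraries and in NotoPdiff cells. *Lhx1*, a LIM factor of early mesoderm, came next in trunk notochord, at 2.40 FPKM in the E8.5 and 8.64 in the E9.5 library, and was the highest in NMPdiff cells at 37.0 FPKM. In NotoPdiff over NMPdiff cells 2 of 5 LIM genes were past 3-fold higher, *Lmx1a* and *Lmx1b*, and *Lhx1* was lower. The shares of all genes were 2.52% higher and 1.53% lower. *Isl1* was the highest in E8.5 MPs at 2.05 FPKM.

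Of 31 ANTP-class homeobox genes related to *Noto* and *Mnx1*, *Noto* was the highest in both NotoP libraries and in E9.5 trunk notochord. The list leaves out the *Hox* genes, so this rank holds only among the genes listed. In E8.5 trunk notochord *Hhex*, a regulator of anterior endoderm, had 31.0 FPKM against 27.5 of *Noto*. In NotoPdiff cells *Cdx2* at 39.9 FPKM and *Cdx1* at 27.8 were above *Noto*. Of these genes, 5 of 11 were at least 3-fold lower in trunk notochord than in NotoPs at E8.5, and 4 of 13 at E9.5. Among all genes 8.00% and 10.0% were lower. Besides *Noto*, the lower genes of the family were *Evx1* and members of the *Cdx* group. At each stage 2 of the family were higher, where 8.79% and 8.41% of all genes were. *Cdx4* had 26.0 and 32.7 FPKM in NotoPs and 150 and 107 in MPs. In NotoPdiff over NMPdiff cells 4 of 11 were higher, *Noto*, *Mnx1*, *Meox1* and *Cdx2*, and 1 lower, against 2.52% and 1.53% of all genes. The 4 include *Noto*, which is part of the gate, and *Mnx1*, itself a member.

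Profiles were compared by Pearson's r of log2(FPKM + 1) over the 9 libraries, as a description, among 10942 genes with at least 5 FPKM in 1 library. Unlike the ratios, this r spans embryonic and cultured libraries, and the part of the different instruments in it was not tested. *Noto*, *Mnx1* and *Lmx1a* were low or listed at 0 in MPs, NMPdiff and MPdiff cells, and these libraries are among the points their r rests on. *Noto* was most like *Mnx1* (r = 0.971), and *Noto* in turn was the third most like gene for *Mnx1*. The other genes most like *Noto* were *Tmem176b* (0.966), *Nav3* (0.961), *Sema3e* (0.960), a secreted guidance protein, and *Rbm5* (0.950), an RNA-binding protein. *Mnx1* was most like *Foxd1*, a forkhead factor (0.977), and *Hsd11b2*, the enzyme that inactivates glucocorticoids (0.974), followed by *Noto*, *Nav3* (0.963) and *Lypd6b* (0.963). *Foxd1* had 32.6 and 30.6 FPKM in NotoPs, 12.5 and 21.2 in trunk notochord and 11.4 in NotoPdiff cells.

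*Lmx1a* was most like *Samd3* (0.985), *Shh* (0.984), *Gli1* (0.983), a transcriptional target of Shh signalling, *Slit2* (0.981), an axon guidance gene, and *Etl4* (0.980). All 5 were higher in E9.5 trunk notochord than in the 3 other embryonic notochord libraries, as *Lmx1a* was. They were chosen by r over these same libraries, so this likeness is in part the choice and not a separate finding. *Gli1* was only slightly higher there, at 24.7 FPKM against 23.2 in E8.5 NotoPs. *Shh* had 161 and 178 FPKM in NotoPs and 468 and 607 in trunk notochord. *Slit2* had 119 and 141 FPKM in NotoPs and 175 and 398 in trunk notochord. *T* was most like *Prickle1* (0.917), a planar polarity gene, *Nedd4l* (0.913), *Mea1* (0.898), *Irf1* (0.896) and *Pnrc1* (0.895), of which *Prickle1* had 17.8 FPKM in E8.5 MPs and 72.0 in E9.5 NotoPs.

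Among the members, *T* had an r of 0.808 with *Noto*, 0.799 with *Mnx1* and 0.739 with *Lmx1a* over the 9 libraries. Among the genes most like *T*, these held positions 46, 51 and 151. Reporters of *T* and *Noto* set the sort, so the r between these 2 is in part the gate and not a separate finding. Over the 6 embryonic libraries alone the r of *T* with *Noto*, *Mnx1* and *Lmx1a* was 0.963, 0.998 and 0.880. *Lmx1a* had an r of 0.916 with *Noto* and 0.905 with *Mnx1*. The lists of most similar genes depended on the libraries and the pseudocount used. With the 6 embryonic libraries, 0 of the 5 genes were named again for any of the 4 members. With Spearman's rho, 2 were named again for *T* and 0 for *Noto*, *Mnx1* and *Lmx1a*. Without E8.5 MPs it was 3 of 5 for *Noto* and *Mnx1*, 2 for *Lmx1a* and 0 for *T*. With a pseudocount of 0.1 in place of 1, 0 of 5 were named again for *Noto*, 3 for *T* and *Mnx1* and 4 for *Lmx1a*.

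Peaks of T and Foxa2 in NotoPdiff cultures were counted over each locus with both neighbouring protein-coding genes included. The peak lists hold 6875 T and 22684 Foxa2 peaks, of which 1391 (20.2%) of the T and 1392 (6.14%) of the Foxa2 peaks overlap a peak of the other factor by at least 1 bp, here called shared. Coordinates are those of mm10 (GRCm38), counted from 1. The 3 intervals hold 26 peaks, 13 of T and 13 of Foxa2. Of 19642 protein-coding genes of the expression table, 41.4% have a T peak in their interval, 61.3% a Foxa2 peak and 12.8% a shared one. All 3 loci have T and Foxa2 peaks, and 2 of them, *Noto* and *Lmx1a*, have shared ones. Intervals differ in length, with 112 kb for *Noto*, 241 kb for *Mnx1* and 834 kb for *Lmx1a* against a median of 143 kb, and long intervals hold more peaks. The cultures carry a Noto BAC, so fragments of the *Noto* locus can come from the endogenous gene or the BAC, and its part in peak height was not tested.

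*Noto* (ENSMUSG00000068302, chr6:85423886-85428877, plus strand, 3 exons) lies between the protein-coding genes *Rab11fip5* and *Smyd5*. Its strongest peak is shared and intergenic, 8.0 kb upstream of the start. The T peak there (chr6:85415617-85416214) has a fold enrichment of 16.1 at the summit and rank 504 of 6875, higher than 92.6% of all T peaks. The Foxa2 peak (chr6:85415734-85416194) lies wholly within it, with a fold enrichment of 9.88, higher than 75.4% of Foxa2 peaks, and the summits are 16 bp apart. A second intergenic T peak lies 23.9 kb upstream (chr6:85399744-85400246, fold enrichment 11.3), without a Foxa2 peak. The other 2 peaks of the interval lie in the first introns of the neighbours. They are a weak T peak in *Rab11fip5*, 60.7 kb upstream with a fold enrichment of 4.94, and a Foxa2 peak in *Smyd5*, 13.8 kb downstream of the start of *Noto* with a fold enrichment of 8.12.

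The windows of 50 bp on each side of 4 summits at *Noto* are shown, plus strand 5′ to 3′, because they hold the binding at this gene and its exact motif matches. Capitals mark TCACACCT, a T-box site, or TGTTTAC, a forkhead site, on either strand.
Noto T and Foxa2, 8.0 kb upstream (chr6:85415882-85415982): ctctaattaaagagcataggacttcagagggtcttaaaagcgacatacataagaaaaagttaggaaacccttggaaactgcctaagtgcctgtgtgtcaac
Noto T, 23.9 kb upstream (chr6:85399892-85399992): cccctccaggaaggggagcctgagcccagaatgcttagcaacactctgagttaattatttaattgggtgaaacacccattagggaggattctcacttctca
Noto T, 60.7 kb upstream (chr6:85363138-85363238): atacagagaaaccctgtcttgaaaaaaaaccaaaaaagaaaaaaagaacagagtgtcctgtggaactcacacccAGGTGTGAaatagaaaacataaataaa
Noto Foxa2, 13.8 kb downstream (chr6:85437633-85437733): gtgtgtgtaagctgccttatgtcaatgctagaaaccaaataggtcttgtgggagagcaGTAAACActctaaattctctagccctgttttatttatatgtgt

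The window 60.7 kb upstream holds the only exact T-box site of the 26 summit windows, and 76.2% of its bases are soft-masked as repeats. It holds the 6-base core TCACAC 2 times on its 2 strands, although its T peak is among the weakest 13.4% of the list. The strong shared peak 8.0 kb upstream has neither motif and 0% soft-masked bases.

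*Mnx1* (ENSMUSG00000001566, chr5:29473034-29478470, minus strand, 3 exons) lies between *Nom1* and *Ube3c*. Binding is nearest to the start here, and its fold enrichment is near or below the middle of both lists. Of 4 T peaks, 2 lie in its first intron, 2.0 kb (chr5:29476261-29476628) and 2.8 kb (chr5:29475474-29475897) downstream of the start, with fold enrichments of 7.51 and 5.32. These are higher than 50.8% and 18.5% of T peaks. The other 2 T peaks are intergenic 47.9 kb upstream and in an intron of *Ube3c* 146.7 kb upstream, with fold enrichments of 5.93 and 7.57. The single Foxa2 peak lies 1.1 kb upstream of the start (chr5:29479475-29479982) with a fold enrichment of 6.46, higher than 40.5% of Foxa2 peaks. None of the 5 peaks is shared. The windows of the Foxa2 peak, which has a forkhead site, and of the stronger intronic T peak, which has neither motif, are given on the plus strand, opposite to the gene.
Mnx1 Foxa2, 1.1 kb upstream (chr5:29479545-29479645): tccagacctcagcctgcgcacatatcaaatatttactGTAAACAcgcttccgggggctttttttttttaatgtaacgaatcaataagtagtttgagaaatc
Mnx1 T, first intron (chr5:29476392-29476492): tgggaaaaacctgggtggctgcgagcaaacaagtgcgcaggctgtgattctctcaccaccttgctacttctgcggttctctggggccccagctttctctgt

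*Lmx1a* (ENSMUSG00000026686, chr1:167689237-167848741, plus strand, 8 exons) follows *Rxrg*, and it holds the strongest T peak of the 3 loci. That peak (chr1:167740538-167741162) lies in the second intron, 51.6 kb downstream of the start, with a fold enrichment of 28.0 and rank 9 of 6875. It has no Foxa2 peak. A second T peak in the same intron, 42.4 kb downstream (chr1:167731396-167731856), has a fold enrichment of 10.3. Another, 100.0 kb downstream (chr1:167788960-167789412), has a fold enrichment of 10.1 and is shared with a Foxa2 peak of 6.35 (chr1:167788732-167789375) over 416 bp, with summits 146 bp apart. A weak Foxa2 peak lies 3.9 kb downstream of the start, also in the second intron, with a fold enrichment of 4.07.

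The other 11 peaks of the *Lmx1a* interval lie outside the gene, among them 1 Foxa2 peak in *Rxrg* and 2 Foxa2 peaks within *Gm20711*, an annotated antisense gene. The strongest of the 11 is the Foxa2 peak 380.9 kb downstream of the start (chr1:168069905-168070494), with a fold enrichment of 13.5, higher than 91.4% of Foxa2 peaks. *Rxrg* was listed at 0 in all 6 embryonic libraries. Which gene a peak acts on is not given by its place. Windows of the strongest T peak, of the T peak of the shared site, and of the strongest Foxa2 peak are given on the plus strand.
Lmx1a T, second intron (chr1:167740827-167740927): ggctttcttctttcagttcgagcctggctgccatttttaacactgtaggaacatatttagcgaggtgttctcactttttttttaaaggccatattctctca
Lmx1a T at the shared site, second intron (chr1:167789144-167789244): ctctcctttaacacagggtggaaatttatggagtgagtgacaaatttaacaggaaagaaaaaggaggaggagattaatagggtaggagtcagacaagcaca
Lmx1a Foxa2, 380.9 kb downstream (chr1:168070070-168070170): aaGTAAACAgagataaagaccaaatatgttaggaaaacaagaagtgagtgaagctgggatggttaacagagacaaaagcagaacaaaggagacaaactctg

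**Figure D3:**
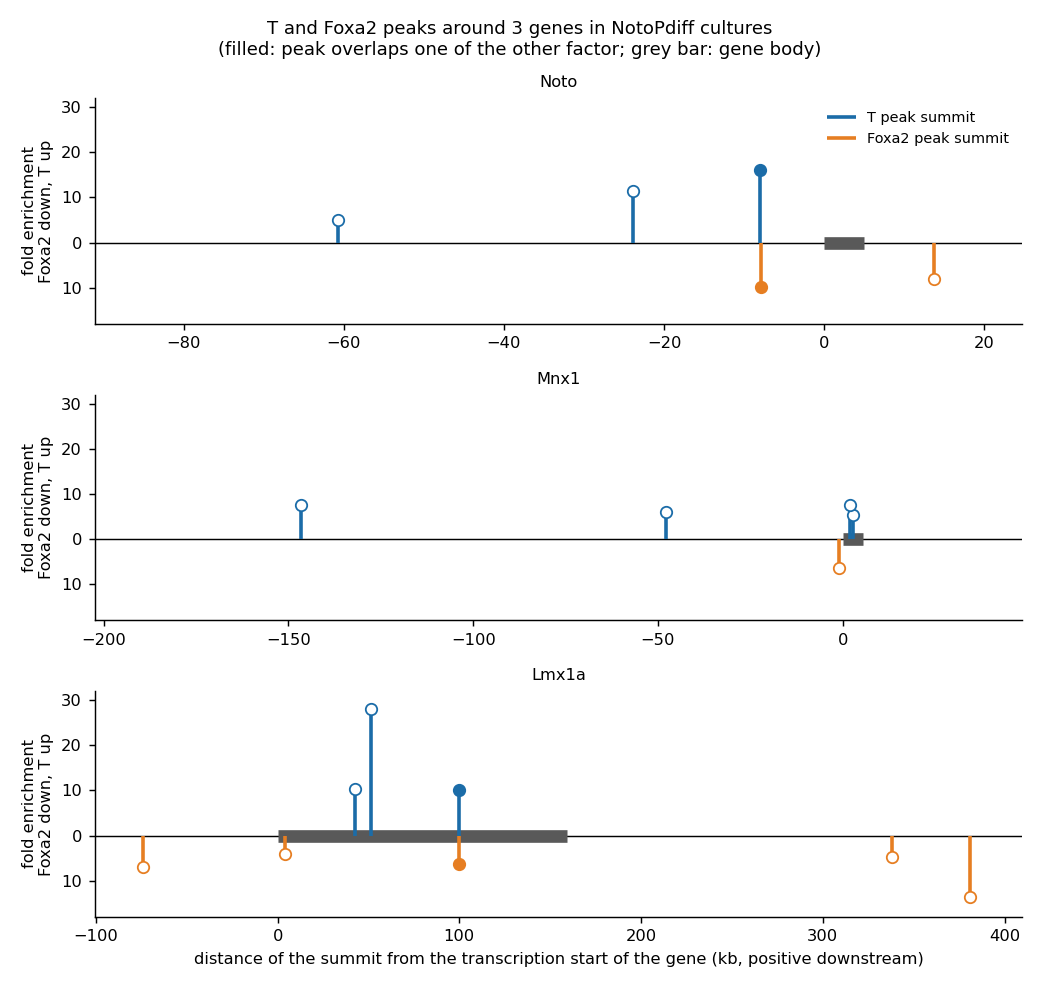
Fold enrichment at the summits of T peaks (up) and Foxa2 peaks (down) against the distance from the transcription start of *Noto*, *Mnx1* and *Lmx1a* (kb), with the gene body as a grey bar and filled points for peaks that overlap one of the other factor. The shared site of *Noto* lies 8.0 kb upstream, the peaks of *Mnx1* nearest to the gene lie within 2.8 kb of its start, and the highest T peak lies within *Lmx1a*, whose panel ends 400 kb downstream of the start.

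Exact motifs were rare at these summits, as in the lists as a whole. Of the 13 T peaks, 1 has the T-box site within 50 bp of its summit, where 2.97% of 6871 T peaks on the chromosomes have it and 0.437% of positions 10000 bp away. Of the 13 Foxa2 peaks, 3 have the forkhead site, 1 at each locus, where 9.74% of 22680 Foxa2 peaks have it and 1.61% of positions 10000 bp away. The absence of a match says only that these letters are not in the window.

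**Figure D4:**
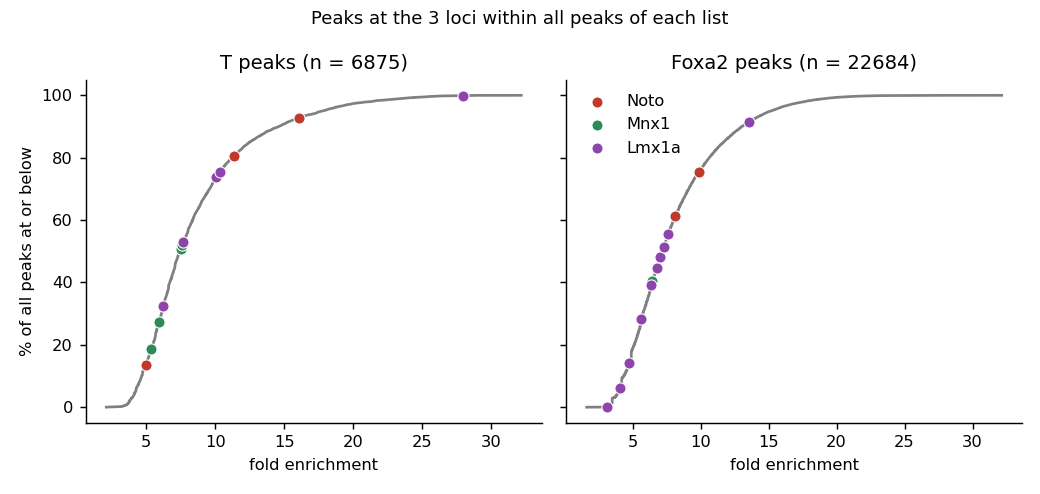
Cumulative share of all T peaks (left) and all Foxa2 peaks (right) by fold enrichment (grey line), with the peaks around *Noto*, *Mnx1* and *Lmx1a* as points. The T peak in the second intron of *Lmx1a* and the shared peak upstream of *Noto* lie near the top of the T list, and the peaks of *Mnx1* lie near or below the middle of both lists.

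Set beside expression, the 3 genes reached between 9.31 and 22.5 FPKM in NotoPdiff cells with different arrangements of binding. *Noto*, at 22.5 FPKM, had a shared upstream site, *Mnx1*, at 10.2 FPKM, had T in its first intron and Foxa2 just upstream with no overlap, and *Lmx1a*, at 9.31 FPKM, had T and a shared site within a long intron. The levels are from sorted cells and the peaks from unsorted cultures, so whether both factors bind a shared site in the same cells was not tested. With 3 genes and 1 library per factor, no relation between peak height and level was examined.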

How the data were processed

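Of the 21 samples of the series, 9 RNA-seq and 2 ChIP-seq libraries were used, 1 per condition. The 4 genes and all gene lists were chosen with earlier results of these data known. For RNA-seq, the authors aligned reads to mm10 with TopHat2 2.1.1, collapsed duplicates by molecular identifiers and deposited the FPKM that Cufflinks 2.2.1 estimated. Counts cannot be recovered from FPKM, and the counting error of a gene is unknown. For ChIP-seq, the authors called peaks on each library with MACS 3.0.0b1 at a q cutoff of 0.1, and the deposited lists give fold enrichment, −log10 of p and q, a score and a summit offset. Here, log2 ratios were taken of FPKM + 1, and 3-fold calls were counted over genes with at least 1 FPKM in either library. Genes named are the 4 members, Foxa2, the 5 genes most like each member, the 3 highest of each list, and genes neighbouring a locus; other genes named within list counts were chosen after their values were seen. Positions came from GENCODE vM21 and bases from GRCm38.p6. Of the alternatives, 24 were set beforehand and 2 were added after seeing the data. Calls and motif scans were tested on simulated data. Software was samtools 1.23.1, pandas 2.3.3, numpy 2.4.6, matplotlib 3.10.9 and Python 3.11.15. A gene beside 1 locus is not reported here.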

Additional observations from a re-analysis of the deposited data

Results flagged for a closer look

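These results point in opposite directions in 2 settings of the same contrast. With 1 library each, none of the differences was tested. The log2 ratio of *Lmx1a* in trunk notochord over NotoPs was -0.66 for the E8.5 libraries and 1.25 for the E9.5 libraries, and that of E9.5 over E8.5 was -0.076 in NotoPs and 1.83 in trunk notochord. The log2 ratio of E9.5 over E8.5 was -0.29 in NotoPs and 0.0921 in trunk notochord for *T*, and 0.11 and -0.39 for *Noto*. With rescaling by the upper quartile, the stage ratios no longer opposed each other for *T* (-0.18 in NotoPs and -0.0289 in trunk notochord) or for *Lmx1a* (0.0282 and 1.71), and still did for *Noto* (0.22 and -0.50).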

How the results depend on the processing

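No paired analysis was possible because each condition has 1 library, and for the same reason no library could be left out of a comparison. The members' log2 ratios were recomputed with pseudocounts of 0.1 and 5 and with 3 rescalings. With a pseudocount of 5, *Mnx1* (1.57) and *Lmx1a* (1.49) in NotoPdiff over NMPdiff, and *Mnx1* (1.58) and *Lmx1a* (1.51) in NotoPdiff over MPdiff, came just under 3-fold, because the larger constant shrinks ratios of low values. With a pseudocount of 0.1, *Noto* in MPdiff over NMPdiff passed 3-fold at -2.62, though both values are below 1 FPKM. Rescaling by the upper quartile took *Mnx1* in E9.5 trunk notochord over NotoPs past 3-fold (-1.60) and turned the sign of 3 small ratios between stages, to 0.0085 for *Mnx1* and 0.0282 for *Lmx1a* in NotoPs and to -0.0289 for *T* in trunk notochord. The order of the embryonic libraries stayed the same for each gene with rescaling to an equal sum and by the median of ratios. With the upper quartile, an alternative for the order chosen after seeing the data, it stayed the same for *Noto*, and 2 libraries changed places for each of *T*, *Mnx1* and *Lmx1a*. Around *Noto* 1 Foxa2 peak remained in the gene body with its flanking intergenic stretches. Around *Lmx1a* 3 T peaks lay within 100000 bp of the start and 3 in the gene body with intergenic stretches, against 6, and 3 and 4 Foxa2 peaks, against 10. Of its 2 shared T peaks, 1 overlapped by at least 50% of the shorter peak and 0 had summits within 100 bp. With the 6-base core, 2 T peaks had a T-box match. The 14 counts of all genes past 3-fold, from 106 to 1389, moved by over 1.5 times with 2-fold (370 to 2712), with a pseudocount of 0.1 (300 to 2133) and with a pseudocount of 5 (27 to 300), and 4 of them with a minimum of 5 FPKM (86 to 855), so percentages of all genes depend on these settings.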
